A study of Mus musculus with 24 samples.

Results

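Complement genes were followed in sorted mouse alveolar macrophages. The 9 genes described were the C1q chains C1qa, C1qb and C1qc, the pathway components C3, Cfb and Cfp, and the receptors C3ar1, C5ar1 and Vsig4. They were chosen by name, as 9 of the 43430 genes in the deposited table of counts, and all 9 were among the 13467 genes that had enough counts to be tested. Complement is a cascade of plasma and tissue proteins that coats particles and dying cells and calls in phagocytes. C1q, built from A, B and C chains, starts the classical pathway. C3 lies where the pathways meet, and its fragments and those of C5 are read by receptors on macrophages. Most complement proteins come from the liver, but tissue macrophages are a known source of C1q, and many macrophages also make C3 and properdin.

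All mice were C57BL/6J. Alveolar macrophages, the phagocytes of the air spaces, were sorted by their surface level of Siglec F, a lectin that resident alveolar macrophages carry at a high level. There were 4 libraries in each of 6 groups, which were Siglec F-high cells of naive mice (young and old), Siglec F-high cells of asbestos-exposed mice (young and old) and Siglec F-low cells of asbestos-exposed mice (young and old). Young mice were 8 to 12 weeks old and old mice more than 18 months, and the series text placed the cells of the asbestos groups 28 days after exposure. That text used the names tissue-resident and monocyte-derived, while the sample labels named the sorts by Siglec F alone, which is done here too. The controls were naive mice, and there was no Siglec F-low sort from naive mice, so the effect of asbestos could be read in Siglec F-high cells only. The labels did not say whether the 4 libraries of a group came from separate animals, so p-values measured the spread between libraries.

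Levels are in CPM, the count of a gene relative to the total of its library after scaling with TMM factors, and are given for replicates 1 to 4 in that order or as mean ± SD of 4 libraries. The totals were 13423080 to 18124526 counts in 22 libraries. Replicate 3 of the young asbestos Siglec F-high group held 11889517 counts on 12528 genes, against 17069 to 18820 genes in the 22. Replicate 3 of the old asbestos Siglec F-high group held 3894699 counts, of which 35.6% fell on 1 gene, Gm42418. Both were less like the rest of their group than the others were, with a Pearson coefficient across genes, which are not independent replicates, of 0.865 and 0.90 against 0.971 to 0.993. Tests are therefore given with all 24 libraries and then with the other 22. Genes with an adjusted p under 0.05 are called changed, after Benjamini-Hochberg adjustment over all genes tested. The sorts differed in Siglecf itself, which was 312.5 to 475.9 CPM in young and 371.6 to 472.1 in old asbestos Siglec F-high libraries. The Siglec F-low libraries held 236.0 to 294.2 and 147.9 to 220.9 CPM.

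The C1q chains lie side by side on the minus strand of chromosome 4 (GRCm38, GENCODE M21). C1qb (ENSMUSG00000036905) spans 136880129 to 136886187, C1qc (ENSMUSG00000036896) 136889804 to 136893065 and C1qa (ENSMUSG00000036887) 136895917 to 136898803. The 3 genes fill 18675 bases, with gaps of 3616 and 2851 bases between them. Promoters were read from RefSeq (GRCm38.p6) for 7 of the 9 members, all but C1qa and Cfb. The stretches upstream of C1qb and C1qc are shown because these neighbours moved together in the sorts, limited to bases outside annotated exons. Capitals mark a GAGGAA word, the core of sites for the myeloid factor PU.1 (TTCCTC on the other strand), and a TGCTGA word, a Maf half-site (TCAGCA on the other strand).
C1qb, chr4:136886201-136886450, minus strand: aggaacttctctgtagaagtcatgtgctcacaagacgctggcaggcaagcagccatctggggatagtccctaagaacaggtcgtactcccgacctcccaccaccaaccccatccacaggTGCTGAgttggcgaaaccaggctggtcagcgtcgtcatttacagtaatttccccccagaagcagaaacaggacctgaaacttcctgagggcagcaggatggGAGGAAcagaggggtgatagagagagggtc
C1qc, chr4:136893066-136893164, minus strand: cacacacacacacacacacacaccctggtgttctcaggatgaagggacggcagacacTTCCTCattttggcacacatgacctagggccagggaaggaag
In C1qb the Maf word lies 131 to 126 and the PU.1 word 30 to 25 bases before the RefSeq start, and in C1qc the PU.1 word lies 193 to 188 bases before it, on the other strand. Such short words are common. Of 32851 RefSeq promoters searched on both strands over 250 upstream bases, 23.3% held GAGGAA and 16.1% held TGCTGA. A match describes the sequence and is no evidence of binding.

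C1q transcripts were low in every Siglec F-high library and abundant in every Siglec F-low library of both ages. C1qa was 3.91, 7.26, 6.19 and 5.86 CPM in young asbestos Siglec F-high cells and 33.0, 39.5, 37.3 and 42.5 in young Siglec F-low cells. It was 3.62, 3.81, 1.63 and 4.80 CPM in old asbestos Siglec F-high cells and 65.0, 48.6, 55.6 and 49.2 in old Siglec F-low cells. The sorts did not overlap at either age, and the Siglec F-low libraries lay highest in old mice. In young mice C1qa was 6.56-fold higher in Siglec F-low cells (log2 fold change 2.71 ± 0.22 SE, adjusted p = 1.36e-07 by edgeR's quasi-likelihood test), and in old mice 14.1-fold higher (3.81 ± 0.25, adjusted p = 1.12e-09). With 22 libraries the log2 fold changes were 2.74 and 3.74.

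C1qb, the B chain, had the highest fold change estimate of the 3 chains in both ages, by less than 2 SE in each. It was 4.501, 6.41, 5.12 and 7.36 CPM in young asbestos Siglec F-high cells and 40.9, 50.4, 42.3 and 49.9 in young Siglec F-low cells. In old mice it was 4.04, 4.39, 1.63 and 4.88 CPM in Siglec F-high and 82.0, 66.4, 72.1 and 69.4 in Siglec F-low cells. Each Siglec F-low library was thus above every Siglec F-high library of its age, and the 4 old Siglec F-low libraries were above the 4 young ones. On the log2 scale C1qb rose by 2.97 ± 0.23 in young mice (edgeR adjusted p = 6.22e-08; 2.92 with 22 libraries). In old mice it rose by 4.11 ± 0.25 (edgeR adjusted p = 9.53e-10; 4.03 with 22 libraries).

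C1qc, the C chain, was 2.47, 5.47, 3.58 and 4.93 CPM in young asbestos Siglec F-high cells and 28.9, 25.4, 22.7 and 25.5 in young Siglec F-low cells. In old mice it was 2.35, 3.22, 1.63 and 2.48 CPM in Siglec F-high cells and 58.1, 35.4, 38.4 and 33.0 in Siglec F-low cells. Again no libraries of the sorts overlapped, and replicate 1 stood highest among the old Siglec F-low libraries. C1qc had log2 fold changes of 2.63 ± 0.22 in young (edgeR adjusted p = 1.63e-07) and 3.97 ± 0.25 in old mice (edgeR adjusted p = 9.53e-10), with 2.57 and 3.93 from 22 libraries. In the old asbestos Siglec F-high group the level of replicate 3 rests on 2 counts per chain. In sorted bulk RNA, fewer cells of a type and less RNA per cell cannot be told apart, so these values do not say whether a few cells or all cells of a sort carried the transcripts.

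**Figure D1:**
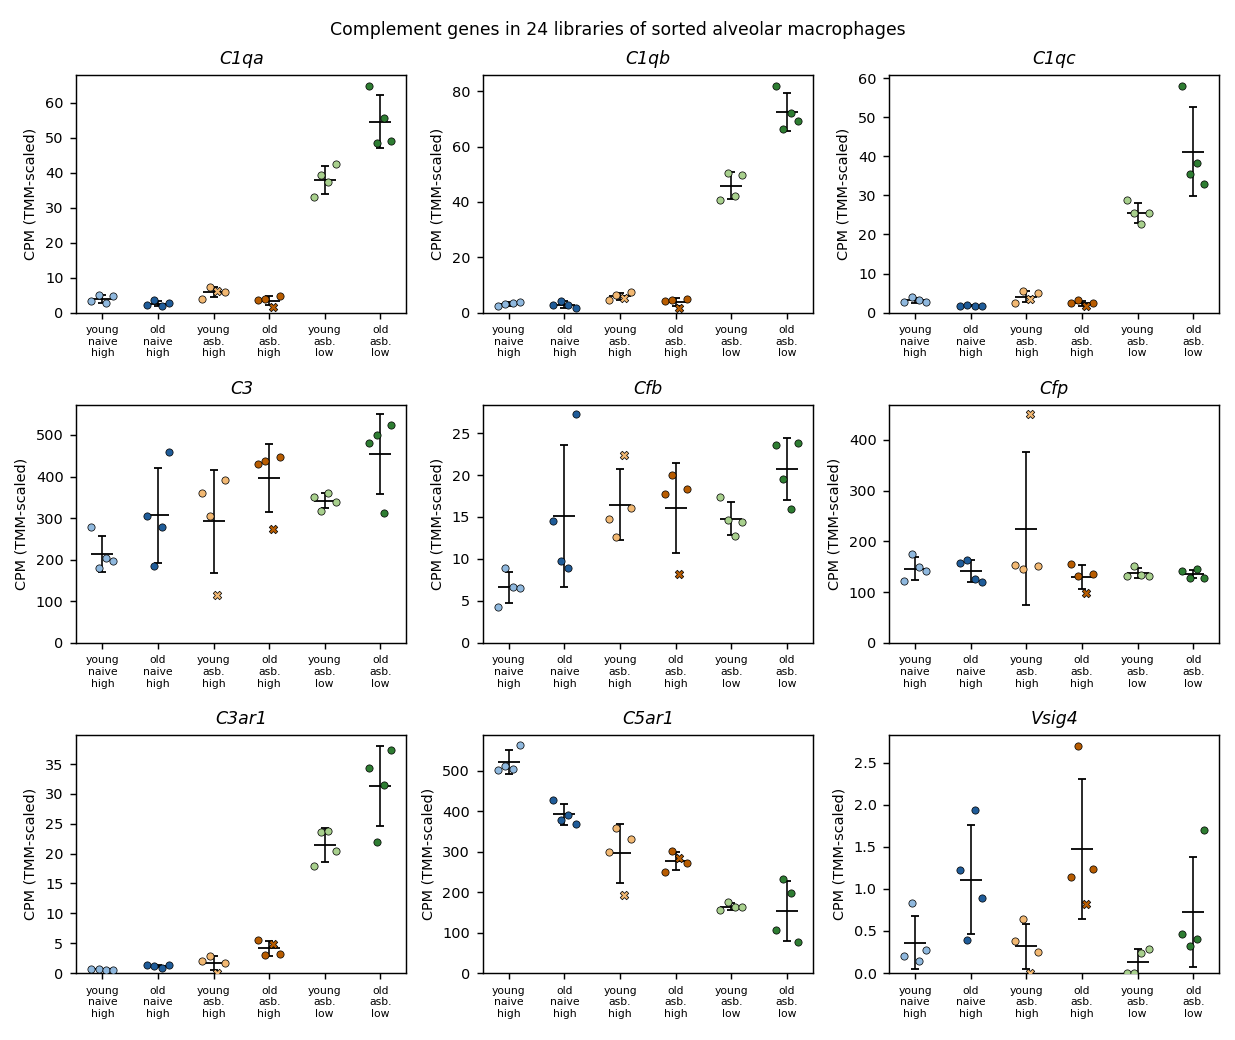
Level of each of the 9 complement genes in CPM (vertical axes, each starting at 0) in the 24 libraries, by group (high and low stand for Siglec F-high and Siglec F-low, asb. for asbestos). Points are libraries, crosses mark replicate 3 of the asbestos Siglec F-high groups, and bars give mean ± SD of 4 libraries. The C1q chains and C3ar1 were high only in the Siglec F-low groups of these 6, while C5ar1 was lowest there.

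With 24 libraries the sum of the 3 chains put the groups in order. It was 7.27 ± 1.74 CPM in old naive, 9.62 ± 3.27 in old asbestos, 10.3 ± 1.88 in young naive and 15.8 ± 3.73 in young asbestos Siglec F-high cells (n = 4 each). With 22 libraries the sum was 11.2 ± 1.09 CPM in old asbestos, then above young naive, and 16.1 ± 4.51 in young asbestos Siglec F-high cells (n = 3 each). It was 109.5 ± 8.15 CPM in young and 168.3 ± 25.6 in old Siglec F-low cells. Neighbours among the 4 Siglec F-high groups overlapped, whereas the Siglec F-low libraries, at 102.3 to 117.8 CPM in young and 150.4 to 205.1 in old mice, overlapped with no other group. Depth behind the sum was 1524 to 3540 counts in a Siglec F-low library and 6 to 385 in a Siglec F-high one.

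The chains are needed together for the C1q protein, and their proportions were compared per kilobase of exon over 22 libraries. All annotated exon bases were counted, 1040 for C1qa, 1088 for C1qb and 1931 for C1qc. The shares depend on these lengths, which may exceed those of the transcripts present. C1qa made up 39.7% ± 1.76 (SD, n = 4), C1qb 45.7% ± 1.31 and C1qc 14.5% ± 2.186 of the chain transcripts in young Siglec F-low cells. In old Siglec F-low cells the shares were 37.4% ± 0.646, 47.6% ± 2.06 and 15.01% ± 2.01. In young and old asbestos Siglec F-high cells (n = 3 each) C1qa made up 41.0% ± 3.37 and 41.6% ± 2.71, and C1qb 42.6% ± 4.41 and 43.5% ± 0.587. Young naive Siglec F-high cells had the lowest share of C1qb, at 35.0% ± 6.09. Library by library, log2 CPM of any pair of chains correlated at a Pearson coefficient of 0.981 to 0.987 over 24 libraries. These libraries share their group structure and their counts are low in the Siglec F-high groups, so the coefficient is a description.

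The genes around the C1q cluster did not share its pattern. Of the 3 nearest protein-coding genes on each side, Tex46, Lactbl1, Ephb2, Epha8 and Wnt4 had too few counts to be tested. Zbtb40 was at 16.4 to 18.8 CPM as the mean of each of the 6 groups. Its log2 fold change between the sorts was 0.07 in young (edgeR adjusted p = 0.818; 0.988 with 22 libraries) and 0.05 in old asbestos mice (edgeR adjusted p = 0.960; 0.16 and 0.489 with 22 libraries).

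In Siglec F-low cells the C1q chains were higher in old than in young mice, and the test passed with 22 libraries but not with 24. The log2 fold change of C1qa was 0.52 ± 0.20 (edgeR adjusted p = 0.375; 0.0440 with 22 libraries), that of C1qb 0.66 ± 0.21 (0.167; 0.00739) and that of C1qc 0.69 ± 0.20 (0.125; 0.0139). All 4 old libraries were above all 4 young ones for each chain. The adjusted p from edgeR without replicate 3 of young asbestos Siglec F-high alone was 0.0177 for C1qb and 0.0216 for C1qc, although that library is in neither group compared. The estimates themselves moved little, at 0.53, 0.67 and 0.69 with 22 libraries.

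In Siglec F-high cells the direction with age was not the same. C1qa in naive cells was 3.45, 5.03, 2.67 and 4.82 CPM in young and 2.27, 3.48, 1.82 and 2.72 in old mice, and these ranges overlapped. C1qc was 2.63, 4.07, 3.11 and 2.66 CPM in young and 1.75, 1.96, 1.77 and 1.66 in old naive cells, with every old library below every young one. Log2 fold changes were -0.63 ± 0.23 for C1qa (edgeR adjusted p = 0.289; 0.109 with 22 libraries) and -0.80 ± 0.24 for C1qc (edgeR adjusted p = 0.104; 0.0583 with 22 libraries), so neither was called. C1qb was 2.21, 3.25, 3.40 and 3.85 CPM in young and 2.80, 4.38, 2.93 and 1.54 in old naive cells, which overlapped.

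The contrast of the sorts was larger in old than in young mice for each chain, by 1.10 ± 0.31 for C1qa, 1.14 ± 0.32 for C1qb and 1.34 ± 0.32 for C1qc on the log2 scale. It combines higher levels with age in Siglec F-low cells and lower estimates with age in asbestos Siglec F-high cells. The latter were -0.58 ± 0.24 for C1qa, -0.48 ± 0.24 for C1qb and -0.66 ± 0.24 for C1qc. None was called (edgeR adjusted p = 0.1285, 0.210 and 0.1; 0.269, 0.2885 and 0.154 with 22 libraries), and the libraries overlapped for each chain. Over all genes, none of these interactions with age was called (edgeR adjusted p = 0.761, 0.761 and 0.652; with 22 libraries 0.422, 0.251 and 0.204). By edgeR 0.00% of all genes tested were called here with 24 libraries and 0.0147% with 22. At an unadjusted p under 0.05 were 4 of the 9 members with 24 libraries and 3 with 22, against 4.83% and 6.38% of all genes tested. DESeq2 called 0 of the 9 members, against 0.0457% of the genes for which it gave an adjusted p. With limma voom C1qb alone of the 9 was called, at 1.17 and an adjusted p of 0.0468, against 0.111% of all genes.

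In Siglec F-high cells of young mice C1qb was 2.21 to 3.85 CPM in the naive and 4.501 to 7.36 in the asbestos group, without overlap. Its log2 fold change was 0.88 ± 0.23, which fell just outside the threshold (edgeR adjusted p = 0.0512) and passed with 22 libraries (0.93, edgeR adjusted p = 0.0128). It also passed in edgeR without replicate 2 (adjusted p = 0.0344) or 4 (0.0255) of old naive, replicate 1 (0.0428) or 3 (0.0221) of young asbestos or replicate 3 (0.0352) of old asbestos Siglec F-high. C1qa, at 0.54, and C1qc, at 0.41, were not called (edgeR adjusted p = 0.192 and 0.318; 0.194 and 0.316 with 22 libraries), although limma voom called C1qa (adjusted p = 0.0141). In old Siglec F-high cells the differences were 0.59, 0.53 and 0.55 for C1qa, C1qb and C1qc (edgeR adjusted p = 0.459, 0.564 and 0.544; 0.152, 0.172 and 0.276 with 22 libraries), and naive and asbestos libraries overlapped for each chain.

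Markers of other macrophages were measured beside these results, and their part in the C1q difference was not tested. All 10 markers on the interstitial macrophage list had counts. Their summed level was 2707 to 4344 CPM in young asbestos Siglec F-high and 3574 to 3977 in young Siglec F-low libraries, and 6773 to 9192 and 5215 to 7363 in the old ones. It was 2652 to 3867 CPM in young naive and 8617 to 10840 in old naive cells, where C1q was low. Folr2 and Lyve1, which mark interstitial macrophages of the lung, were at most 3.58 CPM in any library. Of 12 markers of resident alveolar macrophages, a list that holds Siglecf, edgeR called 5 lower and 1 higher in Siglec F-low than in Siglec F-high cells of young mice, and 4 lower and 1 higher in old mice. With 22 libraries it was 5 lower and 2 higher in young and 6 lower and 1 higher in old mice. Median levels in young Siglec F-high and Siglec F-low cells were 78.3 and 31.2 CPM for Fabp1, 551 and 335 for Krt79, 294 and 168 for Ear1 and 331 and 176 for Cidec. Chil3 of the same list had medians of 20390 and 37130 CPM. No marker of the list was at 0 in any group, and the nuclear receptor gene Pparg was at 153.9 CPM or more in each of the 24 libraries.

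C3, the central component that all pathways cleave, was abundant in every group and was not called between the sorts. C3 (ENSMUSG00000024164, chromosome 17, 57203970 to 57228136, minus strand) was 277.9, 179.5, 204.2 and 197.0 CPM in young naive and 304.8, 185.0, 278.2 and 458.3 in old naive Siglec F-high cells. It was 360.4, 303.9, 114.4 and 390.6 CPM in young asbestos and 429.2, 436.8, 274.4 and 446.2 in old asbestos Siglec F-high cells. The lowest library of both asbestos groups was replicate 3. In Siglec F-low cells C3 was 350.8, 317.2, 360.4 and 339.6 CPM in young and 480.6, 500.2, 313.0 and 525.1 in old mice. Young naive cells had the lowest mean, 214.7 ± 43.4 CPM, and old Siglec F-low cells the highest, 454.7 ± 96.2, with overlap between neighbouring groups in the order. In young Siglec F-high cells C3 had a log2 fold change with asbestos of 0.45 ± 0.29 (edgeR adjusted p = 0.392). With 22 libraries it was 0.71 (edgeR adjusted p = 0.0420), and without replicate 4 of the young asbestos group 0.27.

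The 250 bases upstream of C3 are shown as the promoter of a member that was high in both sorts, with its single marked word, a Maf half-site on the other strand 182 to 177 bases before the start, in capitals.
C3, chr17:57228137-57228386, minus strand: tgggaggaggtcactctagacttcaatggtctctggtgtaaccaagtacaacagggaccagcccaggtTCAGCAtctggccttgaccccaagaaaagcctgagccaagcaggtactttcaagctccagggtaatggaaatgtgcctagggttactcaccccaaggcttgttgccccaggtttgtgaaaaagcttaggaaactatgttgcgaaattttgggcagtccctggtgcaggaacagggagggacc

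Cfb encodes factor B, the protease of the alternative pathway's C3 convertase, and was lowest in young naive cells. Cfb (ENSMUSG00000090231, chromosome 17, 34856374 to 34862518, minus strand) was 4.32, 8.91, 6.71 and 6.56 CPM in young naive and 14.6, 9.77, 8.95 and 27.2 in old naive Siglec F-high cells. No young naive library reached the lowest old one, which was replicate 3 at 8.95 CPM. With age in naive cells Cfb rose 2.29-fold (log2 fold change 1.19 ± 0.30, edgeR adjusted p = 0.0345; 1.20 and 0.0045 with 22 libraries). This call was lost in edgeR without replicate 1, 3 or 4 of young naive (adjusted p = 0.134, 0.102 and 0.109) or replicate 1 of old naive (0.0664). Without replicate 4 of old naive, the highest library, the estimate was 0.75 (edgeR adjusted p = 0.272).

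Cfb in young Siglec F-high cells was also higher after asbestos, at 14.8, 12.6, 22.4 and 16.03 CPM, all above the 4 young naive libraries. It rose 2.48-fold (log2 fold change 1.31 ± 0.30, edgeR adjusted p = 0.0231; 1.13 and 0.0172 with 22 libraries). Without replicate 1, 3 or 4 of young naive the adjusted p was 0.0798, 0.0847 and 0.0836 in edgeR. Cfb in the other groups was 17.8, 20.04, 8.17 and 18.3 CPM in old asbestos Siglec F-high, 17.4, 14.7, 12.8 and 14.4 in young Siglec F-low and 23.6, 19.6, 15.997 and 23.8 in old Siglec F-low cells. These groups overlapped with each other, and no further comparison called the gene. A second gene model, Gm20547, covers 79.5% of the exon bases of Cfb and held 0 counts in all libraries, and how reads of overlapping genes were counted is not given in the sources used here.

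Cfp encodes properdin, the plasma protein that stabilises that convertase, and was nearly level across the groups. Cfp (ENSMUSG00000001128, chromosome X, 20925454 to 20931555, minus strand) was 146.3 ± 21.9 CPM in young naive, 141.7 ± 22.1 in old naive, 130.2 ± 23.5 in old asbestos Siglec F-high, 137.1 ± 9.43 in young Siglec F-low and 135.5 ± 8.72 in old Siglec F-low cells. In the young asbestos Siglec F-high group it was 153.2, 145.0, 450.4 and 151.2 CPM. Replicate 3 alone stood out there, and without it the mean was 149.8 CPM. The log2 fold change of Cfp with asbestos in young cells was 0.62 with 24 libraries (edgeR adjusted p = 0.196) and 0.03 with 22 (edgeR adjusted p = 0.928). With age in asbestos Siglec F-high cells it was -0.78 ± 0.26 (edgeR adjusted p = 0.0751) and -0.08 (edgeR adjusted p = 0.790). That difference was called in edgeR without replicate 1, 2 or 4 of the young group (adjusted p = 0.0349, 0.0341 and 0.0337) and was -0.18 without replicate 3. Properdin transcripts in the other 23 libraries lay between 98.0 and 174.4 CPM.

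C3ar1 encodes the receptor for C3a, a small fragment released when C3 is cleaved, and had the steepest profile of the receptors. C3ar1 (ENSMUSG00000040552, chromosome 6, 122847138 to 122856161, minus strand) was 0.669, 0.636, 0.583 and 0.542 CPM in young naive and 1.34, 1.18, 0.884 and 1.30 in old naive Siglec F-high cells. It was 1.98, 2.93, 0 and 1.75 CPM in young asbestos and 5.48, 2.99, 4.90 and 3.13 in old asbestos Siglec F-high cells. The library with 0 counts was replicate 3 of the young group, where a count of 0 allows up to 0.290 CPM (3 counts, counting error only). C3ar1 in Siglec F-low cells was 17.9, 23.6, 23.8 and 20.4 CPM in young and 34.4, 21.9, 31.5 and 37.4 in old mice, far above all 16 Siglec F-high libraries. The group means ran upwards in the order young naive, old naive, young asbestos and old asbestos Siglec F-high, young and old Siglec F-low. Of the neighbours in that order, old naive and young asbestos overlapped only through replicate 3, and the Siglec F-low groups overlapped through replicate 2 of the old mice.

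Between the sorts C3ar1 was 12.1-fold higher in Siglec F-low cells of young mice (log2 fold change 3.60 ± 0.40, edgeR adjusted p = 4.89e-06) and 7.88-fold higher in old mice (2.98 ± 0.40, edgeR adjusted p = 6.70e-05). With 22 libraries the log2 fold changes were 3.25 and 3.003. In old Siglec F-high cells the C3ar1 levels of asbestos and naive libraries did not overlap, and the log2 fold change was 1.75 ± 0.43 (edgeR adjusted p = 0.0577; 1.72 and 3.46e-04 with 22 libraries). In young Siglec F-high cells it was 1.53 ± 0.46 (edgeR adjusted p = 0.0955; 1.87 and 6.37e-04 with 22 libraries). C3ar1 was thus called in both asbestos responses once the outlying libraries were left out. Without replicate 3 of young asbestos Siglec F-high alone edgeR gave adjusted p = 6.57e-04 in young and 3.04e-04 in old cells, and without replicate 2 of that group 0.0418 in old cells.

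With age C3ar1 was higher in each of the 3 matched settings. The log2 fold change was 0.94 in naive Siglec F-high cells (edgeR adjusted p = 0.642; 0.0749 with 22 libraries), where old and young libraries did not overlap. It was 1.16 ± 0.41 in asbestos Siglec F-high cells (edgeR adjusted p = 0.0878; 0.0580 with 22), also without overlap, and 0.0340 was the adjusted p without replicate 2 of the young group. In Siglec F-low cells it was 0.55 ± 0.34 (edgeR adjusted p = 0.879), called with 22 libraries (edgeR adjusted p = 0.0429).

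The stretch upstream of C3ar1 is shown beside those of C1qb and C1qc because the receptor was high in the same 8 Siglec F-low libraries. Capitals mark a Maf half-site on the other strand, 144 to 139 bases before the start.
C3ar1, chr6:122856162-122856407, minus strand: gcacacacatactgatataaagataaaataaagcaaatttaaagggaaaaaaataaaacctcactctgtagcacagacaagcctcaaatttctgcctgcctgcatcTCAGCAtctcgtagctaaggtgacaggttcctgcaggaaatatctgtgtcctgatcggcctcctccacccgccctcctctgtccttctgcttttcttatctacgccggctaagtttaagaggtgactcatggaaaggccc
The same window of C3ar1 also held an AP-1 word (TGANTCA, found in 6.75% of all promoters) 22 to 16 bases before the start. An NF-kB word (1.41% of all promoters) lay 14 to 5 bases before it, on the other strand. A TATA box word (12.4%) lay 235 to 230 bases before it. Neither C1qb nor C1qc held the AP-1, NF-kB or TATA box word in its 250 bases. The Maf half-site was not limited to members high in Siglec F-low cells. C5ar1, which was lowest there, held it 17 to 12 bases before its RefSeq start at 16259338. This word lies inside the GENCODE model of C5ar1, which runs to 16259540 on the minus strand.

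C5ar1, the receptor for C5a on phagocytes, ran the other way and was highest in young naive cells. C5ar1 (ENSMUSG00000049130, chromosome 7, 16246743 to 16259540, minus strand) was 502.2, 513.6, 505.9 and 564.9 CPM in young naive and 428.8, 379.3, 391.7 and 370.0 in old naive Siglec F-high cells. In the asbestos Siglec F-high groups it was 299.4, 359.6, 194.2 and 331.9 CPM in young and 250.4, 301.4, 285.8 and 271.1 in old mice. Every asbestos Siglec F-high library lay below every naive library of its age. C5ar1 in Siglec F-low cells was 155.5, 175.5, 163.9 and 163.4 CPM in young and 106.6, 233.5, 197.9 and 77.9 in old mice. The group means ran downwards in the order young naive, old naive, young asbestos, old asbestos Siglec F-high, young and old Siglec F-low, from 521.6 ± 29.2 to 153.9 ± 73.7 CPM. The asbestos Siglec F-high groups overlapped with each other, as did the Siglec F-low groups.

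C5ar1 fell between the sorts by 0.85 ± 0.23 on the log2 scale in young (edgeR adjusted p = 0.0331; fell by 1.01 with 22 libraries, edgeR adjusted p = 0.00251) and in old mice (0.0368; fell by 0.84, 0.0106). In young mice the call was lost in edgeR without replicate 2 or 4 of Siglec F-high (adjusted p = 0.0737 and 0.0591) or any 1 of the 4 Siglec F-low libraries (0.0721 to 0.101). In old mice it was lost without any 1 of 13 libraries. These were the 4 of old asbestos Siglec F-high (adjusted p = 0.0579 to 0.0908 in edgeR), replicates 1 (0.152) and 4 (0.138) of old Siglec F-low, replicates 2 to 4 of old naive and the 4 of young Siglec F-low (0.0501 to 0.0520 for these 7). The log2 fold change in old mice was -0.62 without replicate 4 of Siglec F-low and -0.70 without replicate 1.

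C5ar1 was not called by edgeR within Siglec F-high cells with 24 or 22 libraries. With asbestos its log2 fold change was -0.82 ± 0.23 in young (edgeR adjusted p = 0.0691; 0.0791 with 22 libraries) and -0.50 ± 0.23 in old cells (edgeR adjusted p = 0.534; 0.204 with 22 libraries). The first passed with DESeq2 (adjusted p = 0.0180) and limma voom (0.0193). It also passed in edgeR without replicate 2 of young asbestos Siglec F-high (adjusted p = 0.0418) or without replicate 2 (0.0399) or 4 (0.0236) of old Siglec F-low. With age in naive cells the libraries of C5ar1 did not overlap, and the difference was -0.41 ± 0.23 on the log2 scale (edgeR adjusted p = 0.741; 0.245 with 22 libraries). Of 31 alternatives 1 called it, edgeR fitted to the 8 naive libraries alone (-0.41, adjusted p = 0.00769).

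**Figure D2:**
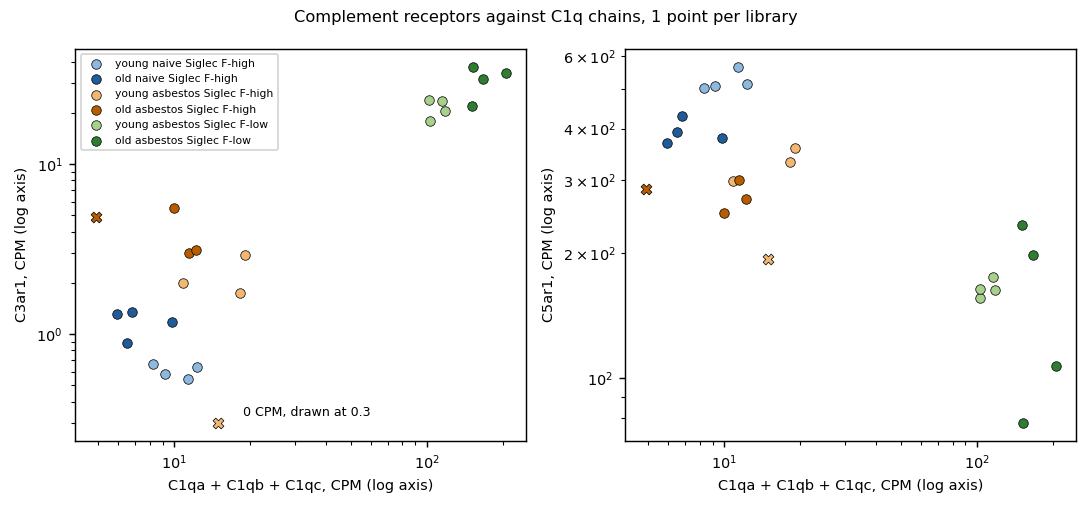
C3ar1 (left) and C5ar1 (right) in CPM on log axes, against the summed CPM of C1qa, C1qb and C1qc on a log axis, 1 point per library and 1 colour per group. Crosses mark replicate 3 of the asbestos Siglec F-high groups. The 8 Siglec F-low libraries stand apart at 102.3 CPM of C1q or more, with C3ar1 high and C5ar1 low.

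Across libraries C1qb and C3ar1 had a Pearson coefficient of 0.844 in log2 CPM over 24 libraries and 0.946 over 22. C1qb and C5ar1 had -0.817 and -0.867, and the receptors C3ar1 and C5ar1 -0.762 and -0.935. C3 and Cfb, which act in the same convertase, had 0.530 and 0.822. These libraries fall into groups, and the coefficients describe mainly the distance between the groups. The plot of both receptors against the summed C1q chains shows that gap, between 19.1 and 102.3 CPM of C1q.

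Vsig4, a receptor of tissue-resident macrophages for fragments of C3, was close to the limit of detection. Vsig4 (ENSMUSG00000044206, chromosome X, 96247203 to 96293438, minus strand) was 0.206, 0.827, 0.146 and 0.271 CPM in young naive and 1.22, 0.393, 1.93 and 0.888 in old naive Siglec F-high cells. It was 0.375, 0.646, 0 and 0.249 CPM in young asbestos and 1.15, 2.70, 0.817 and 1.24 in old asbestos Siglec F-high cells. The Siglec F-low libraries held 0, 0, 0.236 and 0.285 CPM in young and 0.464, 0.326, 0.402 and 1.70 in old mice. The old libraries lay above the young ones without overlap in both asbestos sorts, and the naive groups overlapped. A count of 0 allowed up to 0.290 CPM in replicate 3 of young asbestos Siglec F-high and 0.202 and 0.171 CPM in replicates 1 and 2 of young Siglec F-low cells.

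Vsig4 passed the filter mainly through old Siglec F-high cells, where 3 of 4 naive and 3 of 4 asbestos libraries had 10 counts or more, so its presence among the tested genes supports nothing. Its log2 fold change with age was 1.64 ± 0.77 in naive Siglec F-high (edgeR adjusted p = 0.542), 2.20 ± 0.79 in asbestos Siglec F-high (edgeR adjusted p = 0.0895) and 2.38 ± 0.88 in Siglec F-low cells (edgeR adjusted p = 0.316). With 22 libraries the adjusted p was 0.143, 0.114 and 0.0781 in edgeR, so Vsig4 was not called by that test. Limma voom called it with age in naive (adjusted p = 0.0144) and asbestos Siglec F-high cells (0.0315), and DESeq2 in the latter (0.0481). These calls compare the old groups through which Vsig4 passed the filter, so they support nothing either. Without replicate 4 of old Siglec F-low the log2 fold change with age in Siglec F-low cells was 1.53.

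Compared per kilobase of exon, C5ar1 was the most abundant of the 9 transcripts in naive cells, at 203.0 ± 11.4 CPM per kilobase in young and 152.7 in old mice. In Siglec F-low cells C3 had the highest level in old mice, 88.4 CPM per kilobase, followed by Cfp at 78.1 and C1qb at 66.6. In young Siglec F-low cells Cfp was at 79.0, C3 at 66.5, C5ar1 at 64.0 and C1qb at 42.2 CPM per kilobase. With 24 libraries Vsig4 stayed under 1 and C3ar1 under 8 CPM per kilobase in the mean of every group. With 22 libraries Vsig4 was at 1.14 CPM per kilobase in old asbestos Siglec F-high cells.

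**Figure D3:**
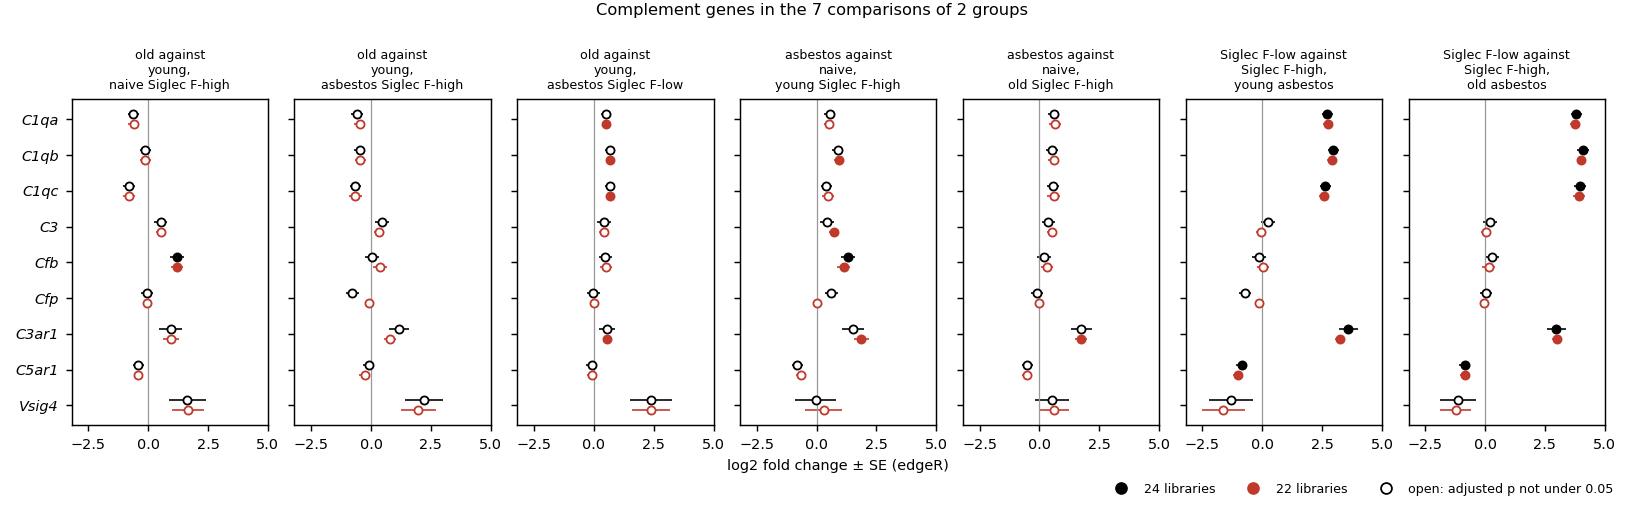
Log2 fold change ± SE from edgeR (horizontal axis) of the 9 genes (rows) in each of the 7 comparisons of 2 groups (panels), with 24 libraries in black and 22 in red. Filled points had an adjusted p under 0.05 and open points did not. The 3 C1q chains and C3ar1 lie far to the right in both comparisons of the sorts, with C5ar1 to the left.

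Counted over the 9 members, 4 rose and 1 fell between the sorts in young asbestos mice, where 3.41% of all genes tested were called higher and 1.58% lower by edgeR. In old mice it was again 4 higher and 1 lower, against 2.64% and 1.66%. Of the 9, 5 did not overlap between the sorts in young and 5 in old mice, against 12.4% and 16.3% of all genes tested. The median log2 fold change of the 9 was 0.23 in young and 0.28 in old mice, and that of all genes tested 0.00 in both. With 22 libraries the medians of the 9 were 0.03 and 0.14. The members called were C1qa, C1qb, C1qc and C3ar1, higher, and C5ar1, lower, in both ages. With 22 libraries the same 5 were called, against 7.42% and 4.60% of all genes in young and 6.30% and 5.28% in old mice.

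Age and asbestos called fewer of the 9 members with 24 libraries. With age in naive Siglec F-high cells 1 member rose, Cfb, against 1.68% of all genes tested called higher by edgeR, and also with 22 libraries, against 5.11%. In asbestos Siglec F-high cells 0 members were called by edgeR, against 4.76% of all genes, with 5 at an unadjusted p under 0.05 against 26.3%. DESeq2 called 3 there against 10.9% of the genes with an adjusted p, and limma voom 1 against 14.1%. With 22 libraries edgeR called 0 against 7.32%, with 3 at an unadjusted p under 0.05 against 20.5%. In Siglec F-low cells 0 were called by edgeR against 1.29%, with 4 at an unadjusted p under 0.05 against 8.15%. DESeq2 called 2 there against 2.72%, and limma voom 4 against 9.54%. With 22 libraries 4 rose there, the C1q chains and C3ar1, against 3.80% of all genes called higher. Old and young libraries did not overlap for 4 of the 9 members in naive Siglec F-high, 2 in asbestos Siglec F-high and 4 in Siglec F-low cells, where 12.0%, 9.42% and 12.9% of all genes tested did not. Vsig4 is among them in both asbestos sorts, and among the members with an unadjusted p under 0.05 by edgeR there. In asbestos Siglec F-high cells it is also among those called by DESeq2 and limma voom. As it passed the filter mainly through old Siglec F-high cells, its part in these counts supports nothing.

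With asbestos in young Siglec F-high cells 1 of the 9 members rose, Cfb again, against 1.43% of all genes called higher by edgeR. With 22 libraries 4 rose, C1qb, C3, C3ar1 and Cfb, against 3.48%. In old Siglec F-high cells 0 members were called by edgeR, against 0.780% of all genes, with 5 at an unadjusted p under 0.05 against 8.55%. DESeq2 called 1 there against 1.93%, and limma voom 1 against 5.10%. With 22 libraries 1 rose there, C3ar1, against 3.16%. Naive and asbestos libraries did not overlap for 3 of the 9 in young and 2 in old mice, where 8.49% and 7.70% of all genes did not. In the test of whether the asbestos response differed between old and young cells, 0 members were called by edgeR, DESeq2 and limma voom, against 0.00%, 0.00% and 0.0223% of all genes. By edgeR 1 member had an unadjusted p under 0.05, against 7.80% of all genes tested.

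The rest of the pathway was read from a list of 49 other complement genes, of which 25 could be tested. Between the sorts 3 rose in young mice, where 3.41% of all genes were called higher. In old mice 3 rose and 1 fell, against 2.64% higher and 1.66% lower. With 22 libraries 26 could be tested, of which 7 rose in young mice against 7.42%, and 7 rose and 1 fell in old mice against 6.30% and 5.28%. Itgam, the alpha chain of complement receptor CR3, was 11.4 ± 2.56 CPM in young asbestos Siglec F-high and 41.0 ± 6.91 in young Siglec F-low cells. It was 25.8 ± 4.09 and 80.0 ± 20.2 CPM in old mice. Itgam rose by 1.85 ± 0.19 on the log2 scale in young and 1.64 ± 0.19 in old mice (edgeR adjusted p = 1.66e-06 and 1.29e-05; 1.95 and 1.64 with 22 libraries). It was also higher with age in both asbestos sorts, by 1.18 in Siglec F-high (edgeR adjusted p = 6.29e-04) and 0.96 in Siglec F-low cells (edgeR adjusted p = 0.00497; 1.28 and 0.97 with 22 libraries, both called). Cd93, a surface protein once named as a C1q receptor, was 62.4 and 239 CPM in young and 43.5 and 194 in old Siglec F-high and Siglec F-low cells (log2 fold change 1.93 and 2.15, edgeR adjusted p = 0.0105 and 0.00695; 1.74 and 2.11 with 22 libraries). C5ar2, the second C5a receptor, was lower in Siglec F-low than in Siglec F-high cells of old asbestos mice (log2 fold change -0.65, edgeR adjusted p = 0.0424; -0.51 with 22 libraries), in the same direction as C5ar1, and its libraries overlapped.

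C4b, a component of the classical pathway downstream of C1q, had the highest log2 fold changes with asbestos of the 25 genes tested. It was 1.27 ± 0.349 CPM in young naive and 10.8 ± 6.64 in young asbestos Siglec F-high cells (log2 fold change 3.10 ± 0.42, edgeR adjusted p = 2.14e-04). In old mice it was 3.85 ± 0.797 and 36.8 ± 6.27 CPM (3.23 ± 0.40, edgeR adjusted p = 6.63e-05). It was also higher in old than in young cells of both asbestos sorts, by 1.73 in Siglec F-high and 1.70 in Siglec F-low cells (edgeR adjusted p = 0.00876 and 0.0150). Reads of C4b and its near-identical copy C4a could have been split by the counting, and C4a was 1.40 CPM or less in the mean of each group. Cd55, an inhibitor of the convertases, fell with asbestos in young Siglec F-high cells (log2 fold change -1.93, edgeR adjusted p = 0.0442). These calls of C4b and Cd55 also held with 22 libraries, with log2 fold changes of 3.41 and 3.17 for C4b with asbestos in young and old mice, 1.36 and 1.70 for C4b with age, and -1.57 for Cd55. Itgam and Cd93 rose with asbestos in old Siglec F-high cells, by 1.40 and 2.28 (edgeR adjusted p = 3.1e-04 and 0.0194), and Cd93 fell with age in naive cells (-1.79, edgeR adjusted p = 0.0404). With 22 libraries these 3 were 1.39, 2.32 and -1.79 and were called.

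**Figure D4:**
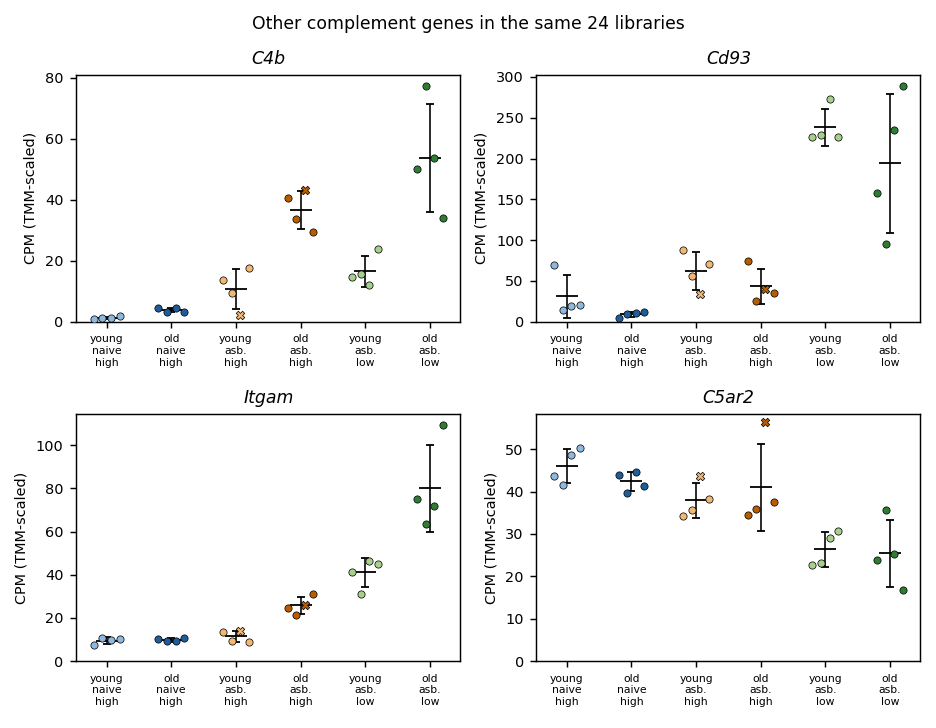
Levels in CPM (vertical axes, from 0) of 4 other complement genes that were called in a comparison (C4b, Cd93, Itgam and C5ar2), in the 24 libraries by group, with mean ± SD of 4 libraries. Crosses mark replicate 3 of the asbestos Siglec F-high groups. Mean levels of Itgam and Cd93 were highest in the Siglec F-low groups, and C4b was low in the naive groups.

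Several partners that the cascade needs were hardly transcribed in these cells. The proteases of the C1 complex differed, with C1ra at 21.2 to 24.7 CPM as the mean of each group and C1s1 at 0.0650 to 0.371. C2 was at most 1.27 CPM in the mean of any group, and the factor D gene Cfd at most 0.0335. Of 8 lectin pathway genes only Fcna, a ficolin, could be tested. It was 0.637 and 2.33 CPM in young and 1.20 and 3.53 in old Siglec F-high and Siglec F-low asbestos cells, and was not called (edgeR adjusted p = 0.0504 and 0.153). With 22 libraries Fcna was called in both ages (edgeR adjusted p = 0.0178 and 0.0175). Of 7 terminal pathway genes 2 could be tested, and neither was called between the sorts.

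The genes most like the C1q chains were chosen by the Pearson coefficient of log2 CPM with the mean of the 3 chains over 24 libraries. They were Eef1a2 (0.963), Eya4 (0.961), Cyp2j6 (0.949), Il7r (0.948) and Plekho1 (0.948). Eef1a2, Eya4 and Cyp2j6 were at most 0.0526 CPM in the mean of any Siglec F-high group and at least 0.776 in the Siglec F-low groups. They passed the filter on low counts only through Siglec F-low libraries, so their high coefficients follow from that route and support nothing. Il7r, the alpha chain of the interleukin-7 receptor, was 7.69 to 11.2 CPM in the means of the Siglec F-high groups and 50.1 and 66.3 in young and old Siglec F-low cells. For C3ar1 the closest were Dlg3 (0.971), Csf1 (0.969) and Wdr91 (0.966). Csf1, the macrophage growth factor, was 1.5, 2.18, 3.02 and 8.51 CPM in young naive, old naive, young asbestos and old asbestos Siglec F-high cells and 27.5 and 42.3 in young and old Siglec F-low cells, the same order of groups as C3ar1.

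For C5ar1 the closest were Acaa1b (0.971), Cidec (0.944) and Pnpla5 (0.929). Cidec, a lipid droplet protein of resident alveolar macrophages, was 454.3 CPM in young naive and 177.9 in young Siglec F-low cells. C3 was closest to the lysosomal genes Clcn7 (0.898) and Lipa (0.896) and to Dram1 (0.896). Cfb was closest to S100a8 (0.837), Dusp23 (0.832) and Cxcl3 (0.822), and Vsig4 to Esrrg (0.808), Cd209b (0.798) and Coro2b (0.786). The genes closest to Cfp, Hnrnpm (0.962), Faim (0.961) and Rpl22 (0.957), had coefficients of 0.647, 0.629 and 0.650 over 22 libraries, so that likeness was weaker without both outlying libraries. All these coefficients describe the same 24 libraries in 6 groups.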

How the data were processed

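Per the labels' protocols, libraries were prepared with a NEBNext kit after poly(A) selection of RNA from the sorted macrophages. The authors deposited 1 table of whole-number read counts per Ensembl gene, not normalized. Per the submitters' processing notes the tools were bcl2fastq 2.19.1, FastQC, Trimmomatic 0.36, STAR 2.6.0 and HTSeq 0.11.2, and the build mm10. The annotation, strand setting and handling of overlapping genes are not given in the sources used here. Reads shared between similar genes cannot be followed in such a table.

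Genes were kept with filterByExpr by group (minimum count 10, minimum total 15), given TMM factors, and analysed with edgeR 4.0.16 (R 4.3.3) in a quasi-likelihood fit of all 24 libraries with a term for each group. Contrasts of the terms gave 7 comparisons between 2 groups and 2 age interactions, each tested with the two-sided F test and adjusted over all genes tested. The SE is the absolute log2 fold change divided by the square root of F. A second fit left out both outlying libraries and tested 13629 genes. Other alternatives were RLE size factors, no filter, only the groups compared, an additive replicate block, DESeq2 1.42.0, limma 3.58.1 voom with quality weights, and leaving out each of the 24 libraries. In data simulated for old against young Siglec F-low cells (13084 genes, 200 changed), 98% of changes of log2 size 1 and 100% of size 2 were recovered, with 6 false calls. The simulation gave every gene the same spread, had no outlying library profiles and changed only genes with higher counts. These rates therefore do not give the power for the real genes, and a member not called may still differ.

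Correlations were computed on log2 CPM with a prior count of 2. Named genes were the 9 members, other complement genes called in a comparison, and the genes of highest correlation, 5 for C1q and 3 for each other member, skipping unnamed gene models. Some results of genes on these lists are not reported here, though the genes stayed in the counts. Members and lists were chosen with earlier results of these data known. No label says that a replicate number marks 1 animal, and in no pair of groups was every same-number correlation of deviations above 0.1. The libraries were treated as unpaired. This check cannot settle pairing, because all 4 libraries of the sorts of old asbestos mice correlated best with their own number. A fit with a replicate block is given among the alternatives. That block gives libraries of the same number a shared term across all 6 groups, so it does not model the sorts of 1 animal. Levels between genes were compared per kilobase of exon in GENCODE M21. The precision of a level is set by its count, and intervals for counts of 0 cover counting error only.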

Additional observations from a re-analysis of the deposited data

Results flagged for a closer look

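In 4 of the 54 sets of 4 libraries (9 genes in 6 groups), 1 library lay far from the other 3 by Dixon's test, in which chance alone flags about 1 in 20 groups. C3 was 274.4 CPM in replicate 3 of old asbestos Siglec F-high cells, where the others were at 429.2 to 446.2. Cfp was 450.4 CPM in replicate 3 of young asbestos Siglec F-high cells, where the others were at 145.0 to 153.2. Both are the libraries left out of the fit with 22. Cfp was also set apart in young Siglec F-low cells, at 151.2 CPM in replicate 2 against 132.0 to 133.1. Vsig4 was 1.70 CPM in replicate 4 of old Siglec F-low cells against 0.326 to 0.464.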

How the results depend on the processing

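The calls of the 3 C1q chains and C3ar1 between the sorts held in both ages under all 31 alternatives, with log2 fold changes of 2.45 to 3.10 for C1q in young and 3.73 to 4.21 in old mice, and 3.20 to 3.997 and 2.83 to 3.26 for C3ar1. The C1q chains with age in asbestos Siglec F-high cells were followed with 24 and 22 libraries only, and kept their sign. No other difference of a member whose value the report prints changed sign under these alternatives. Among those only plotted, none of them called, the log2 fold change moved from 24 to 22 libraries from 0.23 to -0.04 for C3 and -0.15 to 0.03 for Cfb between the sorts of young mice, 0.05 to -0.06 for Cfp between those of old mice, and -0.04 to 0.30 for Vsig4 with asbestos in young cells. The number of members called between the sorts was 5, and 4 to 5 with 1 library left out, in each age. For age in naive Siglec F-high cells it was 1, with 0 under the additive replicate block, 3 with limma voom and 0 to 1 with 1 library left out. For age in asbestos Siglec F-high cells it was 0, with 3 by DESeq2, 1 by limma voom and 0 to 2 with 1 library left out. For age in Siglec F-low cells it was 0, with 4 in 22 libraries, 4 with only the groups compared, 4 by limma voom, 2 by DESeq2 and 0 to 2 with 1 library left out. For asbestos in young cells it was 1, with 4 in 22 libraries, 2 with RLE size factors, 0 with only the groups compared, 6 by limma voom, 4 by DESeq2 and 0 to 3 with 1 library left out. For asbestos in old cells it was 0, with 1 in 22 libraries, 1 without the filter, 1 with only the groups compared, 1 by limma voom, 1 by DESeq2 and 0 to 1 with 1 library left out. In the interaction of sort and age it was 0, with 1 by limma voom and 0 with 1 library left out. The cause of these changes was not tested. Vsig4 is among the members called with age in both Siglec F-high settings by limma voom, and in the asbestos one by DESeq2. It passed the filter mainly through those old groups, so its part in these counts supports nothing.

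Cfb with age in naive cells had a log2 fold change of 1.13 with the replicate block (edgeR adjusted p = 0.0610), and the block changed no other count of members called. Libraries with the same number correlated in their deviations at 0.0733 to 0.186 across the sorts of old asbestos mice, where all 4 libraries correlated best with their own number, and -0.180 to 0.245 between the young ones. With only the groups compared, edgeR gave Cfb adjusted p = 0.0605 with age in naive cells and 0.216 with asbestos in young cells, and C5ar1 adjusted p = 0.0765 and 0.170 between the sorts of young and old mice. Without the filter the call of C5ar1 in old mice was lost (0.0571). RLE size factors moved the median log2 fold change of all genes by at most 0.03.

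Vsig4 and C3ar1 in naive cells, with 25 and 45 counts over 4 young libraries, and the C1q chains in old asbestos Siglec F-high replicate 3, with 6 counts in all, are limited by depth.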
